A study of Mus musculus with 2 samples.

Results

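The genes described are 10 genes of the primitive endoderm, chosen by name from a table of allele-specific nuclear RNA: Gata4, Gata6, Sox7, Sox17, Foxa2, Pdgfra, Dab2, Cubn, Amn and Sparc. All 10 were found among the 48550 rows of the table. The RNA came from F121-6, a line of female embryonic stem (ES) cells derived from a mouse cross of the strain 129 with Mus musculus castaneus (cas), which carries 1 chromosome set of each. The cells were grown with serum and the cytokine LIF on a layer of mouse embryonic fibroblasts (MEFs) whose division had been stopped with mitomycin C, and the strain of those fibroblasts is not in the labels. The samples form 1 group of 2 libraries without any treatment, and the comparison is between the reads assigned to the 129 allele and those assigned to the cas allele within each library.

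Primitive endoderm is the layer of extraembryonic cells that separates from the epiblast in the blastocyst, where fibroblast growth factor signalling and the transcription factor Gata6 oppose Nanog. Gata4, Sox17 and Sox7 follow in the same lineage, together with the receptor gene Pdgfra, a widely used marker of it, and the cells go on to form the visceral and parietal endoderm of the yolk sac. ES cells correspond to the epiblast, and cultures in serum with LIF are known to hold a small and variable number of cells that express endoderm genes. Fibroblasts are known to express Pdgfra, Sparc and Dab2 as well, and some fibroblasts express Gata4 or Gata6.

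Of the 7 genes with at least 20 allele reads in each library, 3 (42.9%) were called by limma (adjusted p under 0.05), all higher from 129, beside 43.7% of all tested genes called in either direction and 21.8% called higher from 129. They were Pdgfra, which gave 96.4% ± 0.99 of its reads from 129, Cubn with 94.97% ± 4.58 and Amn with 77.0% ± 6.89 (SD, n = 2 libraries). None was called higher from cas by limma, none at an unadjusted p under 0.05, and none by the exact binomial test in both libraries. Dab2, Sparc, Gata4 and Gata6 had no call, and Gata4 and Gata6 gave different shares in the 2 libraries. The remaining 3, Sox7, Sox17 and Foxa2, had too few reads for the fit.

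The letters before the starts of the 3 called genes are shown with those of Dab2 and Sparc, the tested genes that had a promoter entry and no call. Each is the 250 bases that precede a transcript start of RefSeq on the strand of the gene, in the build GRCm38.p6, which is the C57BL/6J reference and neither of the alleles measured. The bases after the start were found early in a transcript of GENCODE M21 for Amn, Dab2 and Sparc, but not for Pdgfra and Cubn. The Sparc window lies inside the annotated span of the gene. Capitals mark GATAA on either strand, a core of the sites bound by Gata factors. The positions are chr5:75152001-75152250 on the plus strand for Pdgfra, chr2:13491877-13492126 on the minus strand for Cubn, chr12:111270846-111271095 on the plus strand for Amn, chr15:6299539-6299788 on the plus strand for the upstream of the 2 starts given for Dab2, and chr11:55420081-55420330 on the minus strand for Sparc.
Pdgfra: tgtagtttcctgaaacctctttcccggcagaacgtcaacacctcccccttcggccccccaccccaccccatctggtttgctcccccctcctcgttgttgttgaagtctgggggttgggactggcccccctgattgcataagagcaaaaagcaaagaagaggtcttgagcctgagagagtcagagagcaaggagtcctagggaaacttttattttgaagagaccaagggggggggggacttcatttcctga
Cubn: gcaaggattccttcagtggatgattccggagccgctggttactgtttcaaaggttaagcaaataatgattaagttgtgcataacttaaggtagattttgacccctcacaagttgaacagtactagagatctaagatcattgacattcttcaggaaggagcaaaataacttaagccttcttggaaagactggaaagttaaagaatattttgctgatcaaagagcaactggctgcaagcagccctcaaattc
Amn: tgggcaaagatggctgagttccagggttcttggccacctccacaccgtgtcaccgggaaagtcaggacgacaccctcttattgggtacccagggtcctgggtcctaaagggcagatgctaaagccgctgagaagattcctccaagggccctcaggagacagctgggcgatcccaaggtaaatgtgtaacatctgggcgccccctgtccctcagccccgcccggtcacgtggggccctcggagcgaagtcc
Dab2: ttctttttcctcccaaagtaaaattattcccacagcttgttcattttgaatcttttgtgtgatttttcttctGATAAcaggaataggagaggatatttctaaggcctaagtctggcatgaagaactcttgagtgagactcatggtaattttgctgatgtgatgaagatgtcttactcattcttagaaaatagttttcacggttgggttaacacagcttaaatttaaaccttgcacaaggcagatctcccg
Sparc: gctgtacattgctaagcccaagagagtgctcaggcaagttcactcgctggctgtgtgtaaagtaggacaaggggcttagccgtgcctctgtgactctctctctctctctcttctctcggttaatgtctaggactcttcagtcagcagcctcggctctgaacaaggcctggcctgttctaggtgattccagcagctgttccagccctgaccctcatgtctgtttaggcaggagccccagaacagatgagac
GATAA occurred in the window shown for Dab2, 178 bases before the start, and in none of those of Pdgfra, Cubn, Amn and Sparc. The window at the other start of Dab2 did not hold it, and 1 of the 3 windows of Foxa2 did, while 22.6% of 32851 RefSeq promoter windows of the same length held it. The Amn window was 61.2% G and C with 11 CG pairs, and the Cubn window 39.6% with 2 CG pairs, against medians of 52.4% and 6 over all windows. Entries were found for 6 of the 10 genes, and Gata4, Gata6, Sox7 and Sox17 are named without one.

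Ratios are given as log2(129/cas) of CPM (reads per 1000000 reads of their allele column) plus 0.1, and are positive where 129 gave more. The columns were scaled by trimmed means, so that 0 is the typical gene. In the typical gene 55.3% of reads came from 129 in library 1 and 56.0% in library 2. Library 1 held 28523744 allele-assigned reads and library 2 held 31402765. Over 15509 tested genes limma called 43.7% at an adjusted p (Benjamini-Hochberg) under 0.05, 21.8% higher from 129 and 21.8% higher from cas. When both alleles were given 1 shared library size, the median over genes was 0.32 and 81.3% of calls favoured 129, and scaling by the column totals gave 0.10 and 61.9%, so ratios are read relative to the typical gene. The primitive endoderm genes were thus called about as often as genes at large. Their median log2 ratio was 0.62, against 0.00 for all tested genes. With 7 genes this is the ratio of Gata6, and the libraries gave different medians, 1.035 in library 1 and -0.058 in library 2. The SE of a gene rests on the spread of genes of like abundance more than on its own 2 libraries. The labels do not say whether separate cultures gave the libraries, so the p-values measure a spread that may be technical. In a bulk sample, fewer cells of a type and less RNA per cell cannot be told apart.

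**Figure D1:**
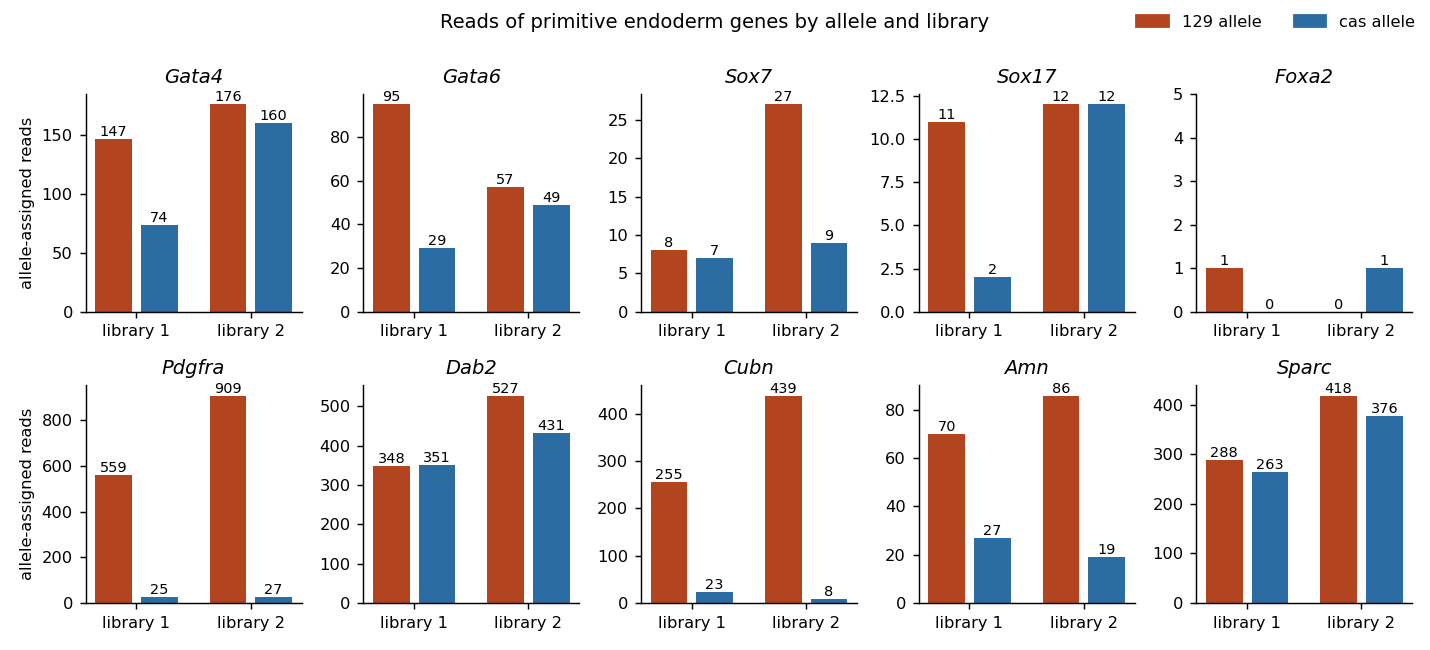
Allele-assigned reads (y axis, own scale in each panel, from 0) of each gene in library 1 and library 2, with the 129 allele left of the cas allele and the number of reads above each bar. Pdgfra had 559 and 909 reads from 129 beside 25 and 27 from cas, whereas Sparc and Dab2 had similar numbers from both alleles and Foxa2 had 1 read in each library.

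Pdgfra encodes the receptor for platelet-derived growth factor A, a receptor tyrosine kinase (ENSMUSG00000029231.15, chromosome 5, 75152292 to 75198215, plus strand, mm10, GENCODE M21). It had 559 reads from 129 in library 1 and 909 in library 2, against 25 and 27 from cas. The 129 reads exceeded the cas reads in both libraries. The 129 share was 95.7% in library 1 (exact 95% binomial interval 93.8 to 97.2) and 97.1% in library 2 (95.8 to 98.1), and the intervals, which cover counting error only, overlapped. The log2 ratio was 4.38 (SE 0.25, limma adjusted p = 1.1e-28), a 20.9-fold excess of 129 on the scale of CPM plus 0.1, which understates the change of low values. Only 4.81% of the tested genes were called higher from 129 by at least 4-fold.

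Cubn encodes cubilin, the large endocytic receptor with which visceral endoderm and proximal kidney tubules take up proteins (ENSMUSG00000026726.10, chromosome 2, 13276338 to 13491813, minus strand). It had 255 and 439 reads of the 129 allele, against 23 and 8 of the cas allele. Both libraries had far more reads from 129, and the share was higher in library 2 at 98.2% (96.5 to 99.2) than in library 1 at 91.7% (87.8 to 94.7). The log2 ratio was 4.15 (SE 0.37, limma adjusted p = 1.6e-17), from 3.10 in library 1 and 5.20 in library 2. By Fisher's exact test (two-sided, adjusted over all tested genes) the shares of the libraries differed, with an adjusted p of 0.00079. The opposite-strand gene Gm13270 overlaps Cubn and had 6 and 10 reads of the 129 allele, against 17 and 0 of the cas allele. The use of strand in counting is not stated in the labels. Overlapping genes in the table had 9 reads in all for Gata6, 2 for Sox17 and 0 for Pdgfra and Dab2.

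Amn encodes amnionless, the membrane partner that carries cubilin to the cell surface (ENSMUSG00000021278.7, chromosome 12, 111271095 to 111276426, plus strand). It had 70 and 86 reads of the 129 allele, against 27 and 19 of the cas allele. Both libraries had more reads from 129, with a 129 share of 72.2% (62.1 to 80.8) in library 1 and 81.9% (73.2 to 88.7) in library 2. The log2 ratio was 1.40 (SE 0.45, limma adjusted p = 0.0075), 2.63-fold, and it was called under each alternative setting in which it was tested. Cubilin and amnionless work as 1 receptor complex, and Amn had a smaller ratio than Cubn in each library, at 1.04 and 1.76 against 3.10 and 5.20.

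**Figure D2:**
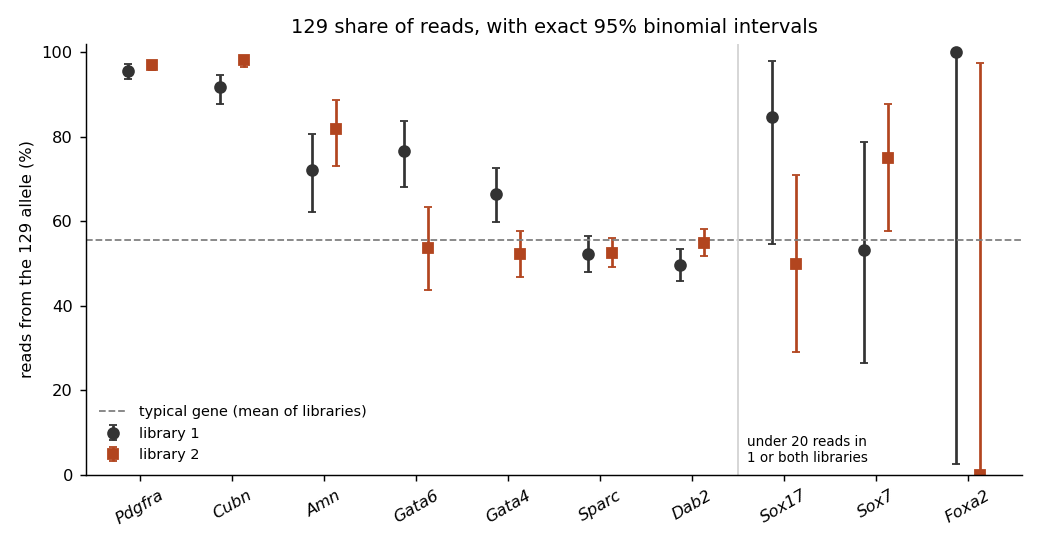
Share of reads from the 129 allele (y axis, percent) for each gene, with circles for library 1, squares for library 2 and bars for exact 95% binomial intervals; the dashed line is the share of the typical gene. The intervals of Pdgfra, Cubn and Amn lie above the line in both libraries, those of Gata4 and Gata6 in library 1 and that of Sox7 in library 2.

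Dab2 encodes an adaptor that links receptors such as cubilin and megalin to clathrin-coated pits (ENSMUSG00000022150.16, chromosome 15, 6299788 to 6440712, plus strand). It had 348 and 527 reads of the 129 allele, against 351 and 431 of the cas allele, and the 129 share of 49.8% in library 1 and 55.0% in library 2 lay below the typical gene in both. The log2 ratio was -0.19 (95% interval -0.48 to 0.10, limma adjusted p = 0.32), and it was 0.14 with 1 shared library size for both alleles. Library 1 alone gave -0.32 and a call toward cas in the exact binomial test (adjusted p = 0.0079), and library 2 alone gave -0.06 without one (adjusted p = 0.6). The other endocytic receptor of the visceral endoderm, megalin (Lrp2, of the further endoderm list and singled out after its value was seen), had 651 and 714 reads of the 129 allele, against 251 and 259 of the cas allele, with a log2 ratio of 1.09 (SE 0.15, limma adjusted p = 5.5e-10).

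Sparc encodes osteonectin, a secreted protein that binds collagen and is abundant in parietal endoderm and in fibroblasts (ENSMUSG00000018593.13, chromosome 11, 55394500 to 55423183, minus strand). It had 288 and 418 reads of the 129 allele, against 263 and 376 of the cas allele. The 129 share was nearly the same in both libraries, at 52.5% ± 0.27 (SD, n = 2). The log2 ratio was -0.18 (95% interval -0.50 to 0.13, limma adjusted p = 0.38), and 0.14 with 1 shared library size.

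Gata6, a zinc finger transcription factor that starts the primitive endoderm programme, lies on chromosome 18 (ENSMUSG00000005836.10, 11052064 to 11085635, plus strand). It had 95 and 57 reads of the 129 allele, against 29 and 49 of the cas allele. Library 1 was high for 129 and library 2 was near even, with 129 shares of 76.6% (68.2 to 83.7) and 53.8% (43.8 to 63.5). Gata4, its paralogue, acts after Gata6 in the same lineage (ENSMUSG00000021944.15, chromosome 14, 63198922 to 63271692, minus strand). It had 147 and 176 reads of the 129 allele, against 74 and 160 of the cas allele. The 129 share was 66.5% (59.9 to 72.7) in library 1 and 52.4% (46.9 to 57.8) in library 2, the same order of libraries as in Gata6.

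Neither Gata gene was called over both libraries. The log2 ratio of Gata6 was 0.62 (95% interval -0.18 to 1.42, limma adjusted p = 0.22), from 1.37 in library 1 and -0.13 in library 2. That of Gata4 was 0.23 (-0.28 to 0.74, limma adjusted p = 0.5), from 0.68 and -0.21. Library 1 alone called both toward 129 in the exact binomial test (adjusted p = 3.9e-06 for Gata6 and 0.002 for Gata4), and library 2 alone called neither (adjusted p = 0.75 and 0.24). The libraries differed in the 129 share of each by Fisher's exact test, with adjusted p = 0.0035 for Gata6 and 0.0096 for Gata4. Together with Cubn these were 3 of 7 genes, while 21.4% of all tested genes passed the same test, which covers counting error only and compares these libraries, not conditions. The library with the higher 129 share was library 1 for Gata4 and Gata6 and library 2 for Cubn. Gata6 had 3.14 CPM from 129 in library 2 against 6.20 in library 1, and 3.44 CPM from cas in library 2 against 2.34. Gata4 had 9.69 CPM from 129 in library 2 against 9.59 in library 1, and 11.2 CPM from cas in library 2 against 5.97. The labels name no condition that differed between the libraries. With 1 shared library size Gata6 was called higher from 129, at 0.94 (limma adjusted p = 0.042).

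**Figure D3:**
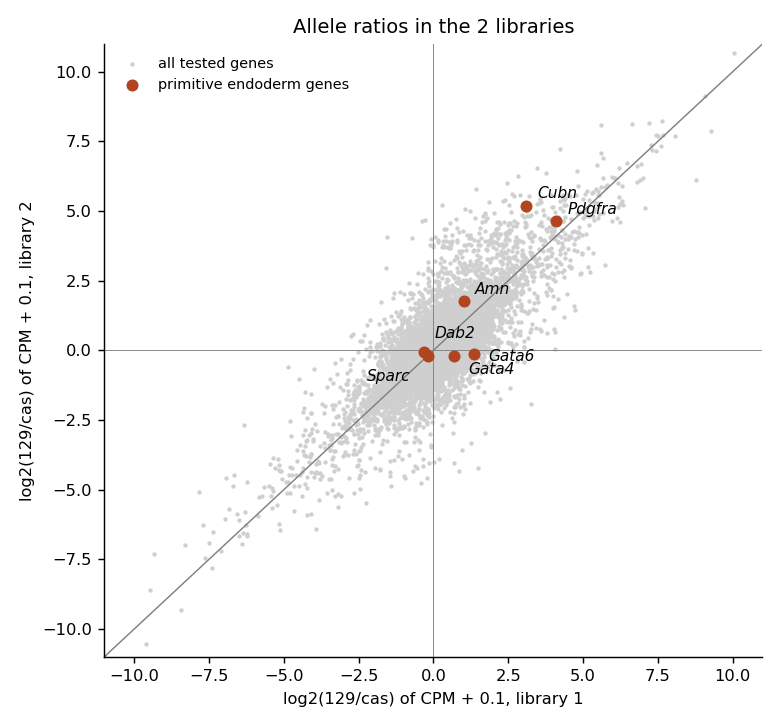
Log2(129/cas) of CPM plus 0.1 in library 1 (x axis) and library 2 (y axis) for all 15509 tested genes (grey) and the 7 tested primitive endoderm genes (coloured, named); the diagonal marks equal ratios. Pdgfra, Cubn and Amn lie above 0 on both axes, and Gata4 and Gata6 lie to the right of 0 but just below it in library 2.

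Sox7 and Sox17 encode related HMG-box transcription factors of endoderm and of blood vessels. Sox7 (ENSMUSG00000063060.6, chromosome 14, 63943673 to 63950732, plus strand) had 8 and 27 reads of the 129 allele, against 7 and 9 of the cas allele, a 129 share of 53.3% (26.6 to 78.7) in library 1 and 75.0% (57.8 to 87.9) in library 2. Sox17 (ENSMUSG00000025902.13, chromosome 1, 4490931 to 4497354, minus strand) had 11 and 12 reads of the 129 allele, against 2 and 12 of the cas allele, a share of 84.6% (54.6 to 98.1) and 50.0% (29.1 to 70.9). The wide intervals of each gene overlapped between the libraries. Summed over both libraries the 129 share was 68.6% (54.1 to 80.9) for Sox7 and 62.2% (44.8 to 77.5) for Sox17. With a minimum of 10 reads both entered the fit, with log2 ratios of 0.51 (SE 0.79, limma adjusted p = 0.64) and 0.67 (SE 0.90, limma adjusted p = 0.59). Foxa2, a forkhead factor of the visceral endoderm and later of the definitive endoderm (ENSMUSG00000037025.11, chromosome 2, 148042877 to 148046969, minus strand), had 1 read from 129 in library 1 and 1 from cas in library 2. No allele difference was detectable at this depth.

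The levels of the genes were compared per kb of annotated span, since nuclear RNA includes introns. In CPM of all allele reads per kb, Sparc had 0.675 in library 1 and 0.883 in library 2, Amn 0.639 and 0.628, and Pdgfra 0.447 and 0.650. Sparc and Amn were close in library 1, and Amn and Pdgfra changed places between the libraries. Dab2 followed with 0.174 and 0.217. Gata4 (0.107 and 0.147), Sox7 (0.0746 and 0.163), Gata6 (0.130 and 0.101) and Sox17 (0.0711 and 0.119) had ranges that overlapped one another. Cubn, the longest gene, had 0.0453 and 0.0662, and Foxa2 the lowest level with 0.00858 and 0.00779. Among tested genes, these mean levels stood at percentile 51.5 for Sparc, 46.2 for Amn, 42.7 for Pdgfra, 17.2 for Gata4, 16.1 for Gata6 and 9.05 for Cubn. Per kb of exon the order of the leading genes was Sparc, Dab2, Pdgfra, Gata4 and Amn, with means of 5.90, 3.75, 2.51, 2.37 and 1.83. How many bases of each gene differ between 129 and cas sets how many reads can be assigned, and was not known here.

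The summed reads of several genes were higher in library 2 relative to its depth. The ratio of library 2 to library 1 was 1.46 for Pdgfra (exact 95% interval 1.31 to 1.62), 1.46 for Cubn (1.25 to 1.70), 1.38 for Gata4 (1.16 to 1.64), 1.31 for Sparc (1.17 to 1.46), 1.24 for Dab2 (1.13 to 1.37) and 2.18 for Sox7 (1.16 to 4.28). It was 0.776 for Gata6 (0.593 to 1.01) and 0.983 for Amn (0.739 to 1.31). All tested genes had a median of 1.07, with 0.703 and 1.68 at percentiles 5 and 95, so that each of the tested genes lay within the usual range. With that median, most tested genes lay above 1. The tested primitive endoderm genes had a median of 1.31, with 5 of 7 above 1. The fibroblast genes had a median of 1.30, with 32 of 37 above 1, and the epiblast and naive pluripotency genes one of 0.951, with 11 of 24 above 1.

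Fibroblast genes are given beside these values because the cells grew on fibroblasts. Of 47 such genes, 45 were in the table and 37 were tested. Of these, 29 (78.4%) were called higher from 129 and none from cas, beside 21.8% of all tested genes in each direction. Limma found 0 higher from cas at an unadjusted p under 0.05 as well, and so did the exact binomial test in both libraries. The median log2 ratio was 1.95. Their reads summed to 3116 CPM from 129 in library 1 and 3242 in library 2, against 1823 and 1673 CPM from cas. Fn1, the fibronectin gene and the one with most reads, which ES cells and endoderm also express, made up much of these sums, with 1577 and 1419 CPM from 129, against 1454 and 1238 CPM from cas (log2 ratio 0.16, SE 0.03, called higher from 129). Without Fn1 the sums were 1539 and 1823 CPM from 129, against 368.9 and 435.3 CPM from cas, and the ratio of the sums was 4.17 and 4.19, beside 1.71 and 1.94 with it. Col5a1, a chain of collagen V, had a log2 ratio of 1.01 (SE 0.08), and Cald1, the actin-binding caldesmon, had 0.76 (SE 0.07), both called. The matrix gene Bgn had 276 and 501 reads of the 129 allele, against 1 and 0 of the cas allele. Tnc, another matrix gene, had 256 and 488 of the 129 allele, against 3 and 0 of the cas allele. Both were called higher from 129, with ratios whose size depends on the added 0.1. Collagen I (Col1a1, Col1a2), a defining product of fibroblasts, had log2 ratios of 5.05 (SE 0.41) and 5.79 (SE 0.34). Thy1, a surface protein of many fibroblasts, had 0.20 (SE 0.33) without a call. Lum, Twist1, S100a4, Timp3 and Cav1 were listed at 0 in every column, as was Sox2 of the epiblast and naive pluripotency genes. Such a 0 need not mean that the gene is silent. The part of fibroblast RNA in the 129 reads of Pdgfra, Cubn and Amn was not tested. Of the genes known in fibroblasts, Pdgfra had a ratio of 4.38, and Sparc and Dab2 had ratios of -0.18 and -0.19 without a call. The ratios of Sparc and Dab2 turned positive, at 0.14 each, with 1 shared library size. Of the genes not taken as known in fibroblasts, Cubn and Amn had 4.15 and 1.40 and were called. Sox7, Sox17 and Foxa2, the others not taken as such, had too few reads.

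**Figure D4:**
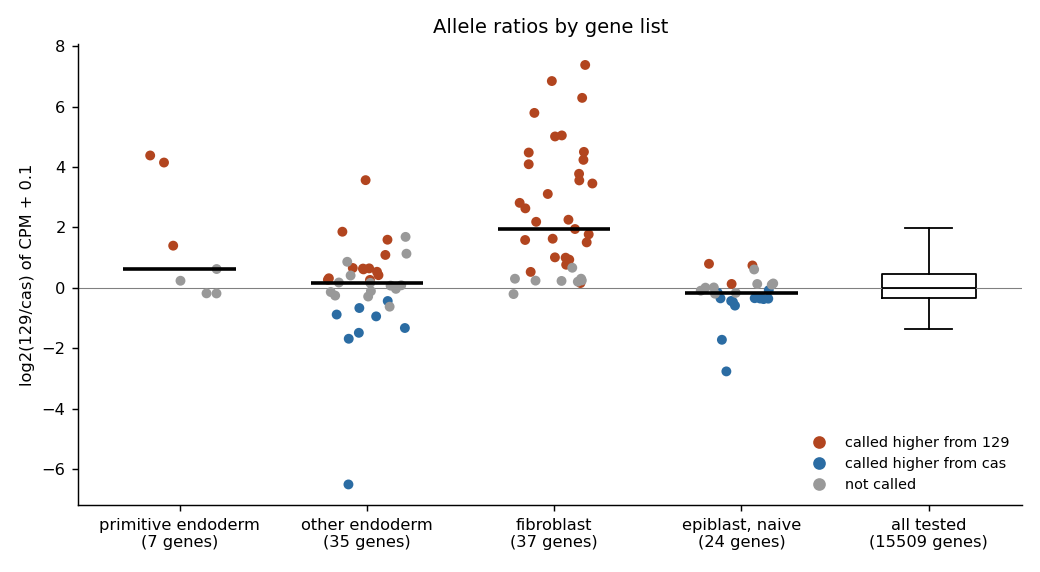
Log2(129/cas) of CPM plus 0.1 (y axis) of each tested gene in 4 lists (points, coloured by call, black bar at the median), beside a box for all tested genes (median, quartiles, whiskers at percentiles 5 and 95). The primitive endoderm genes divide into 3 called points and 4 between -0.19 and 0.62, and the fibroblast genes lie mostly above 0.

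Among the other lists, the gene with the nearest pair of ratios to Pdgfra was the fibroblast gene Cd44, the hyaluronan receptor. Pdgfra had 4.11 in library 1 and 4.65 in library 2, and Cd44 had 4.21 and 4.75. The search ran over 96 tested genes of the 3 lists, and the Euclidean distance over the 2 libraries was 0.14. For Cubn it was the matrix proteoglycan gene Dcn (3.56 and 5.44, distance 0.52, with 0 cas reads in library 2), and for Amn the matricellular gene Ctgf (1.37 and 1.64, distance 0.36). For Gata4 and Gata6 alike it was the smooth muscle actin gene Acta2 (0.64 and -0.17), at distances of 0.05 and 0.73. Acta2 had only 119 reads in all and an SE of 0.55, so its nearness is uncertain. The distance of Gata6 was the largest of the 7 genes, so no gene of the lists lay close to it. Dab2 lay nearest to Utf1 (distance 0.03) and Sparc to Klf5 (distance 0.04), both genes of the pluripotency list. The fibroblast gene Tagln also lay close to Sparc, with -0.17 and -0.24 beside -0.17 and -0.19. These distances are small beside the SE of Sparc (0.16), Utf1 (0.33) and Tagln (0.41). Which list lay nearest to Dab2 and Sparc is therefore not settled. The highest log2 ratio was 3.57 among the other endoderm genes and 0.79 among the pluripotency genes. Within these lists only fibroblast genes, 37 of the 96, thus reached the ratios of Pdgfra and Cubn, so the list of their nearest gene was largely set beforehand. Among all tested genes Pdgfra and Cubn stood at percentiles 99.2 and 99.0, and genes outside the lists, such as Dnah7b at 7.32, lay above them. The lists were chosen with earlier results of these data known, so the nearest genes of all 7 are a description only.

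Further genes known from the primitive endoderm and its descendants went both ways. Of 48, 35 were tested, of which 13 were called toward 129, 8 toward cas and 14 toward neither, a share called of 60.0% beside the 43.7% of all tested genes. The median log2 ratio was 0.18. Of the laminin chains of the basement membrane with most reads, Lama1 was higher from cas, at -0.67 (SE 0.05, limma adjusted p = 2e-20), and Lamc1 higher from 129, at 0.27 (SE 0.05, limma adjusted p = 6e-06), directions that held with 1 shared library size. Nid2, a linker of the basement membrane, had 0.07 (SE 0.06, limma adjusted p = 0.33), which was 0.40 and called with 1 shared library size, and the plasminogen activator gene Plat, a marker of parietal endoderm, had 1.86 (SE 0.31, limma adjusted p = 3.5e-07). Ttr, the thyroxine carrier of visceral endoderm, had 20 and 29 reads of the 129 allele, against 0 and 1 of the cas allele, a summed 129 share of 98.0% (89.4 to 100.0). Afp, the fetal serum protein typical of visceral endoderm, was listed at 0. So was Sox2 of the pluripotency list, a marker of ES cells, so a 0 here need not mean that a gene is silent. Fgfr2, a receptor for the growth factor signal that opens this lineage, had 2123 and 2721 reads of the 129 allele, against 214089 and 143274 of the cas allele, but its annotated span overlaps 36 genes on its own strand and 33 on the other. Among 24 tested epiblast and naive pluripotency genes, 3 were higher from 129 and 12 from cas, beside 21.8% of all tested genes in each direction. Their median was -0.17, and it was 0.16 with 1 shared library size, where 10 were higher from 129 and 2 from cas. The germ cell and pluripotency genes Prdm14 and Dppa3 were higher from cas, at -2.77 (SE 0.15) and -1.72 (SE 0.34), and the DNA demethylation genes Tet1 and Tet2 higher from 129, at 0.74 (SE 0.03) and 0.13 (SE 0.04), in each case with 1 shared library size as well. The transcription factor genes Esrrb, at -0.08 (SE 0.03) and called toward cas, and Tfcp2l1, at 0.00 (SE 0.04) without a call, were called toward 129 with 1 shared library size, at 0.25 and 0.33. Nanog, which opposes Gata6 in the epiblast, had 680 and 1091 reads of the 129 allele, against 715 and 1065 of the cas allele (log2 ratio -0.35, SE 0.10, limma adjusted p = 0.0045), and -0.02 without a call with 1 shared library size.

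Position was then compared, using tested genes whose deposited rows are centred within 500 kb of that of the gene. Distances run between these centres, which lay within 2 bp of the annotated start in 83.4% of matched rows. The counts of neighbours stand beside 21.8% of all tested genes called in each direction. Next to Cubn, 3 of 4 tested neighbours were higher from 129 and none from cas. They include Vim, the intermediate filament gene of fibroblasts and other mesenchymal cells, which is 82.1 kb away and had a log2 ratio of 3.78 (SE 0.12). The nearest neighbour of Cubn, the RNA methyltransferase gene Trdmt1 at 52.9 kb, had 0.44 without a call (limma adjusted p = 0.25). Around Pdgfra, 2 of 6 neighbours were higher from 129 and none from cas, with ratios between -0.94 and 0.91, all far below that of Pdgfra. The nearest were the predicted gene Gm19583 (0.52, not called) and Chic2 (0.32, limma adjusted p = 0.017). Around Amn, 5 of 18 neighbours were higher from 129 and 4 from cas. The nearest of them, A230087F16Rik at 13.7 kb, had -0.08 without a call, and 4930595D18Rik at 86.6 kb had 2.45 (limma adjusted p = 0.017) from 21 and 35 reads of 129, against 6 and 1 of cas.

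The deposited rows of Gata4 and Sox7 are centred 698.4 kb apart on chromosome 14. That of Gata4 is centred 26421 bp from its annotated start, which also affects the distances to its neighbours. Of the 13 tested neighbours of Gata4, 2 were higher from 129 and 7 from cas, and the nearest, the DNA glycosylase gene Neil2 at 51.7 kb, had 2.10 (limma adjusted p = 2.5e-10), while Fdft1 at 67.5 kb had -0.03. Of the 4 neighbours of Gata6, none was higher from 129 and 3 were higher from cas, with Mib1, a ubiquitin ligase of the Notch pathway, at -0.33 and Abhd3 at 0.03. Around Sparc, 2 of 13 were higher from 129 and 4 from cas, and the nearest, Atox1 and G3bp1, had 0.10 and -0.09 without calls. Dab2 had 2 tested neighbours, Fyb at 280.1 kb with 3.59 and Rictor at 408.6 kb with -0.20. With 1 shared library size the neighbours of Gata4 divided into 4 higher from 129 and 5 from cas, those of Amn into 8 and 2 and those of Sparc into 4 and 4, both of Dab2 were higher from 129, and those of Gata6 had no call. Over the chromosomes that hold the 10 genes, the median of all tested genes lay between -0.12 for chromosome 14 and 0.07 for chromosome 2.

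**Figure D5:**
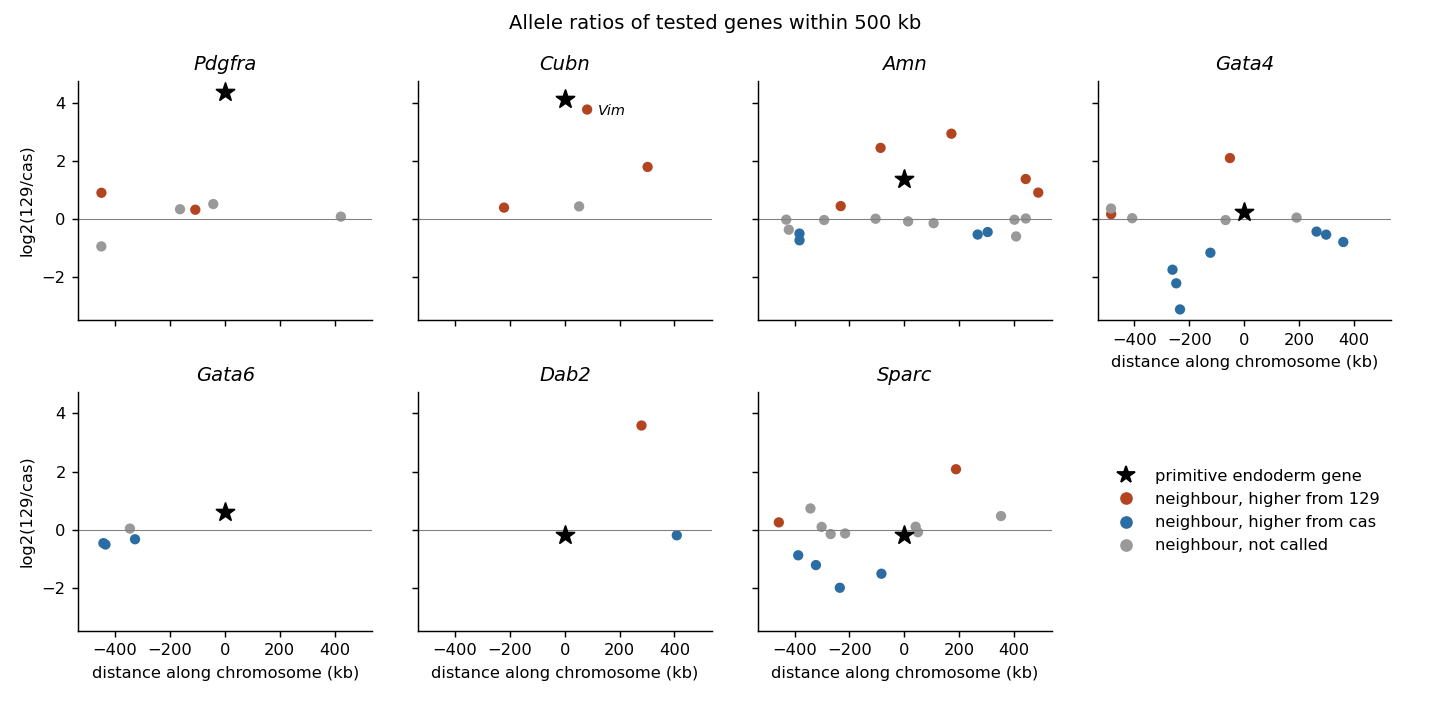
Log2(129/cas) (y axis) of tested genes within 500 kb of each tested primitive endoderm gene. The x axis is the distance between the centres of the deposited rows (kb, positive toward higher coordinates). The star is the gene itself. Vim stands beside Cubn at 3.78, and no neighbour of Pdgfra exceeds 0.91.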

How the data were processed

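Total nuclear RNA of 2 libraries was sequenced as paired ends of 100 bp from libraries that keep strand, with new reads merged with earlier ones, per the labels' protocols. Bowtie2 and the build mm10 are named, per the submitters' processing notes. No source used here gives the counting program, the SNP set or whether strand was used. The authors deposited RPKM, in columns that per the file headers hold counts. Each value times the length in its row came out as a whole number of reads after division by 1 constant per column (100.0% of values, tolerance 0.01 read). The deposited lengths matched the annotated span within 2 bp in only 67 rows, so levels were taken per kb of GENCODE M21 span or exon, matched by name, chromosome and strand for 46410 of 48550 rows.

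The recovered reads were scaled to CPM by trimmed means of M values, computed in the same R code, and log2(CPM + 0.1) was tested with limma 3.58.1 in R 4.3.3, with trended variances, testing allele with library as a block. Genes needed at least 20 reads in each library, and 1570 rows of chromosome Y were left out. The libraries' 129 shares were compared by Fisher's exact test, and intervals of shares are exact binomial (Clopper-Pearson, scipy 1.17.1), those of log2 ratios 1.96 SE. On simulated data for 15260 genes with a fixed dispersion of 0.003, the fit found 62.7% of 67 simulated 1.5-fold changes. It found 82.1% of 67 that were 2-fold and 100% of 66 that were 4-fold, with 7 false calls among 170. Few genes were changed there, whereas 43.7% of tested genes were called in the data. The dispersion was set and not estimated from the data, where 21.4% of tested genes differed in 129 share between the libraries by Fisher's exact test. The rates found on simulated data therefore need not carry over. Named genes were the 10 genes, in each other list the 4 with most reads and up to 2 further called ones of largest ratio, the 2 nearest tested neighbours, and the gene of nearest ratios. Sums of the fibroblast genes without Fn1 were added after the data were seen. Col1a1, Col1a2, Thy1, Nanog, Lrp2, Afp and Sox2 are given besides, as defining markers or partners, and Tagln for its closeness to Sparc. The members and lists were chosen with earlier results of these data known. The positions in the deposited rows of Gata4, Sparc and Gata6 are centred 26421, 3103 and 445 bp from the annotated start.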

Additional observations from a re-analysis of the deposited data

How the results depend on the processing

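The calls of Pdgfra and Cubn held under every alternative tried, and that of Amn under every one except a minimum of 100 reads, which left Amn untested. The ratios of Pdgfra ranged from 4.11 to 4.70, of Cubn from 3.10 to 5.20 and of Amn from 1.04 to 1.76. With either library left out, the other was tested by the exact binomial test, because limma then has no residual degrees of freedom. This gave 3 to 5 of the 7 genes higher from 129 and 0 to 1 from cas, the additions being Gata4 and Gata6 toward 129 and Dab2 toward cas, each in library 1 alone. The ratios were then -0.21 to 0.68 for Gata4 and -0.13 to 1.37 for Gata6. With 1 shared library size, the ratio of Dab2 turned to 0.14 and that of Sparc to 0.14. Without the replicate block, 3907 of all tested genes were called against 6771 with it, 8 of the other endoderm genes were higher from 129 and 3 of the pluripotency genes higher from cas, while 3 primitive endoderm genes were called, as with it. Over all genes, leaving out a library gave 9175 to 10319 calls. Of the other endoderm genes, 5 were higher from cas with a minimum of 100 reads and 5 with 1 shared library size. Of the pluripotency genes, 10 were higher from 129 and 2 from cas with 1 shared library size, 6 and 7 with column totals, and 5 to 6 higher from 129 with a library left out. The causes of these differences were not tested. The fibroblast genes had 26 to 33 calls toward 129. Depth limits Sox7, Sox17 and Foxa2, which had 51, 37 and 2 reads in all.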
